A study of Caenorhabditis elegans with 6 samples.

Results

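Free Dam methylation in Caenorhabditis elegans was compared between males and hermaphrodites, using the strain coded PMW124. In DamID a bacterial DNA adenine methyltransferase (Dam) marks adenine in GATC sequences near the protein that carries it, and DpnI cuts only at marked sites, so that marked fragments can be amplified and sequenced. Dam joined to green fluorescent protein (gfp), which has no chromatin partner of its own, diffuses through the nucleus. Its marks therefore follow the number of GATC sequences, the amount of DNA and how open that DNA is. Such a strain serves as the denominator when fusions to chromatin or envelope proteins are mapped. Males carry 1 X chromosome and hermaphrodites 2, while both carry a pair of each autosome. X is also the chromosome on which the worm dosage compensation complex acts in hermaphrodites, lowering transcription from each copy.

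Counts of GATC reads in all 1005 nuclear bins of 100 kb were used, 178 on X and 827 on the 5 autosomes, for 2 PMW124 libraries from males and 2 from hermaphrodites. These are 4 of the 12 count columns of the deposited table. The series holds 3 Dam fusions (to gfp, to the nuclear lamin lmn-1 and to the nuclear pore protein mel-28), each under the hsp-16.41 heat-shock promoter without induction, in L4 larvae of both sexes. The labels name the fusions but not the strain codes, and PMW124 was taken as the gfp fusion because it is the denominator of the authors' ratios. In the authors' deposited table PMW124 has a ratio of 1 in all 998 bins with a value in males and in all 992 in hermaphrodites. Males and hermaphrodites expressing the gfp fusion were each labelled as 1 sample of 20 whole animals, lysed at 10 worms per tube and grown at 25 °C on E. coli. The series' design speaks of replicates, but no label says whether the numbered columns are separate tubes, so p-values measure only the spread between these libraries, which may be technical. Whole animals do not show in which cells a mark was made.

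The male libraries 1 and 2 held 28947 and 89872 nuclear counts, against 23597 and 30431 in hermaphrodite libraries 1 and 2. The median autosomal bin had 16 and 74 counts in males, against 12 and 16 in hermaphrodites. Counts were expressed as a level, in which the mean autosomal bin of the same library is 1. GATC sites per bin were not counted, so levels were not corrected for them. Whether site numbers give the differences between chromosomes or parts within a library was not tested. Ratios between the sexes compare the same bins. A bin with no count could still have had a level of up to 0.0961 and 0.0298 in male libraries 1 and 2, and of up to 0.133 and 0.103 in hermaphrodite libraries 1 and 2 (3 counts).

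Male library 2 stood apart from the others in how its counts were spread over bins and windows. Its 50 highest bins held 28.6% of nuclear counts, against 42.4% in male library 1 and 41.0% and 38.4% in hermaphrodites. Across the 85 autosomal windows of 1 Mb, log2 levels of male library 1 correlated with hermaphrodite libraries 1 and 2 at Pearson r = 0.95 and 0.97. The hermaphrodite libraries correlated with each other at r = 0.95. Male library 2 had r = 0.84 with male library 1, and 0.90 and 0.83 with the hermaphrodite libraries. Over the autosomal bins of 100 kb its r did not stand apart: with hermaphrodite libraries 1 and 2 it was 0.80 and 0.75, against 0.77 between the hermaphrodite libraries. Few counts per bin limit r at this scale, with an autosomal median of 74 in male library 2 and 12 to 16 in the other libraries. Similar r there does not show a similar profile. These correlations are across windows or bins that share the same sites and the same high bins, and are descriptive. Results below are therefore also given for each male library.

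The free fusion marked X far less in males than in hermaphrodites. X received 10.8% of nuclear counts (95% Wilson interval 10.4 to 11.2) in male library 1 and 7.33% (7.16 to 7.50) in male library 2. In hermaphrodites it received 20.8% (20.3 to 21.3) in library 1 and 20.6% (20.1 to 21.0) in library 2. These intervals treat reads as independent molecules, which amplified reads are not, and so are at best a lower bound of the counting error. They do not cover the spread between libraries. All 4 intervals lie apart between the sexes, and those of the male libraries also lie apart from each other.

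Per bin and relative to the autosomes, X had a level of 0.562 and 0.367 in the male libraries, against 1.22 and 1.20 in the hermaphrodite libraries. In hermaphrodites, where X and the autosomes are present in the same number, an average X bin thus held more counts than an average autosomal bin. The numbers of GATC sites in these bins were not compared. On the log2 scale the X level was -1.14 ± 0.43 in males and 0.27 ± 0.01 in hermaphrodites (SD, n = 2 each). The difference was -1.41, a 0.376-fold level in males, with both male libraries below both hermaphrodite libraries. The two-sided exact permutation p was 0.333, the smallest that 2 against 2 libraries allow.

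The copy number of X alone corresponds to a ratio of 0.5, or -1 on the log2 scale. Male library 1 had 0.462 and 0.468 times the X level of hermaphrodite libraries 1 and 2, which lies 0.12 and 0.10 below the copy ratio on the log2 scale (-0.12 and -0.10). Male library 2 had 0.302 and 0.306 times that level, which lies further below it (-0.73 and -0.71). All 4 pairs of libraries were thus below 0.5, but the male libraries differed from each other by more than male library 1 differed from 0.5. The ratio of median bins, which is not moved by a few high bins, gave 0.455 and 0.472 for male library 1 and 0.290 and 0.300 for male library 2.

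**Figure D1:**
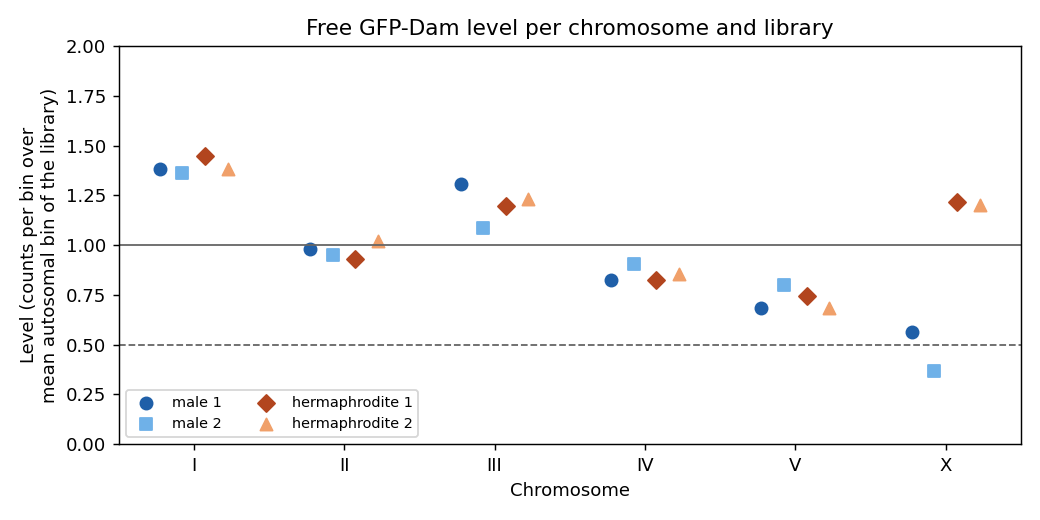
Level of each chromosome (counts per 100 kb bin over the mean autosomal bin of the same library) in the 2 male and 2 hermaphrodite libraries of PMW124; the solid line is the mean autosomal bin and the dashed line 0.5. X lies at 0.562 and 0.367 in males and at 1.22 and 1.20 in hermaphrodites, while the libraries differ less on each autosome.

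The autosomes differed from one another and little between the sexes. Chromosome I had the highest level in each library, with 1.38 and 1.36 in males and 1.45 and 1.38 in hermaphrodites. It was followed by III, with 1.31 and 1.09 in males and 1.19 and 1.23 in hermaphrodites. Chromosome V had the lowest of the autosomes in each library, with 0.687 and 0.801 in males and 0.744 and 0.682 in hermaphrodites. In medians over bins the autosomes lay closer together, with V at 0.875 and 0.973 in males and 0.833 and 0.875 in hermaphrodites. By medians I was highest only in male library 2, with 1.00 and 1.05 in males and 1.08 and 1.06 in hermaphrodites. III was highest in the other libraries, with 1.125 in male library 1 and 1.17 and 1.125 in hermaphrodites. Set against the other autosomes in summed counts, the sex difference of single autosomes ranged from -0.06 (log2) on I to 0.07 on V, against -1.41 on X. By this measure the libraries of the sexes lay apart on none of the 5 autosomes. The exact permutation p-values were 0.667 or 1 (each 1 after Benjamini-Hochberg adjustment over the 5). Set against the median bin of the other autosomes, the sexes lay apart on I (log2 -0.063), IV (0.12) and V (0.20). They did not on II or III. On I, IV and V the exact permutation p was then 0.333, the smallest that 2 against 2 libraries allow. Over the median of all autosomal bins, as used above, male library 1 and hermaphrodite library 2 tied on IV (0.9375) and V (0.875). The median autosomal bin held 16 counts in male library 1 and 12 and 16 in hermaphrodites, so single counts move these values.

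The lower level of X in males was present along the whole chromosome. Counts were summed over 103 windows of 10 consecutive bins (the last of each chromosome is shorter) and tested with edgeR's quasi-likelihood test, the autosomal total serving as library size. At an adjusted p under 0.05, 18 of 18 X windows were lower in males, which is 17.5% of all windows tested, and 0 of 85 autosomal windows changed in either direction. At an unadjusted p under 0.05, 18 X windows were lower and 1 autosomal window was higher. On X the fitted log2 differences ran from -1.63 to -0.91 with a median of -1.32, and on the autosomes from -0.44 to 0.85 with a median of 0.07. In 18 of 18 X windows both male libraries lay below both hermaphrodite libraries, against 3 of 85 autosomal windows. Over all windows this share was 20.4%. The reverse held in 0 X windows and in 11 of 85 autosomal windows, or 10.7% of all windows.

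**Figure D2:**
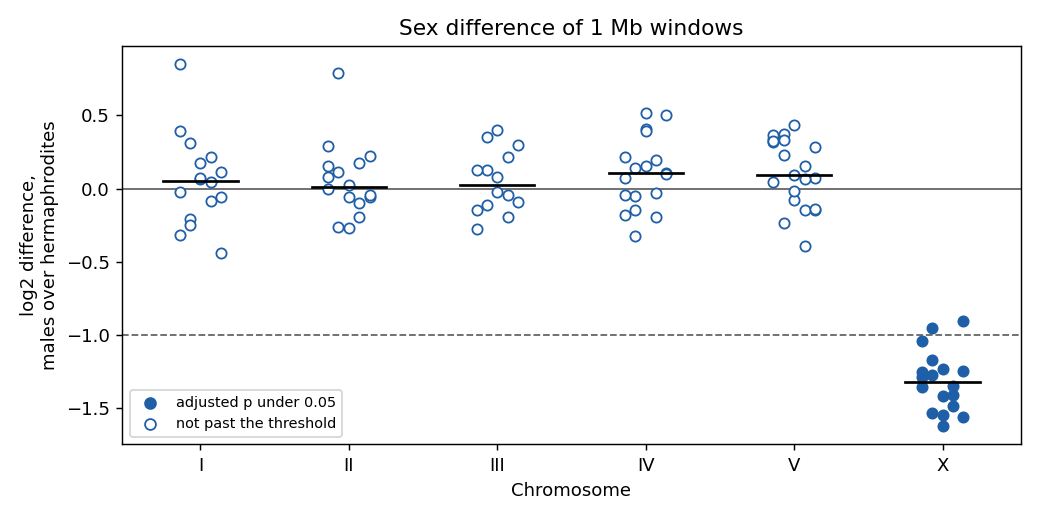
Fitted log2 difference, males over hermaphrodites, of each 1 Mb window by chromosome (edgeR, 2 libraries per sex); filled points have an adjusted p under 0.05, bars are medians, and the dashed line marks the copy ratio of X, -1. The 18 X windows lie between -1.63 and -0.91, apart from all autosomal windows, which lie between -0.44 and 0.85.

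The calls needed both hermaphrodite libraries. Without either hermaphrodite library edgeR called 0 windows, the spread then being estimated from the 2 male libraries alone, though 18 of 18 X windows stayed lower and 16 and 14 windows had an unadjusted p under 0.05. Without male library 1, 18 X windows were called lower, along with 7 autosomal windows lower and 16 higher. Without male library 2, 14 X windows were called lower and 2 autosomal windows higher. With all 4 libraries 1 autosomal window was called higher under each of 3 other scalings (TMM factors, DESeq2 size factors and the nuclear total), where 17, 16 and 16 X windows were called lower. The autosomal window nearest to the threshold was II 6000001 to 7000000, with 0.628 and 0.993 in males against 0.491 and 0.452 in hermaphrodites (log2 0.79 ± 0.31, edgeR adjusted p = 0.064).

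The X window with the smallest p was X 14000001 to 15000000 (build ce10). Its level was 0.279 and 0.261 in males, against 0.818 and 0.773 in hermaphrodites. The groups lay well apart, and the fitted log2 difference was -1.56 ± 0.28 (SE derived from the test statistic, edgeR adjusted p = 6.5e-06). Next came X 13000001 to 14000000, with 0.327 and 0.225 in males against 0.686 and 0.698 in hermaphrodites (log2 -1.35 ± 0.27, adjusted p = 4.1e-05). X 5000001 to 6000000 had 0.224 and 0.199 in males against 0.557 and 0.472 in hermaphrodites (log2 -1.29 ± 0.26, adjusted p = 4.1e-05). In each of these windows both male libraries lay well below both hermaphrodite libraries. The other 7 of the 10 windows with the smallest p had log2 differences from -1.55 for X 12000001 to 13000000 to -1.05 for X 1 to 1000000. In X 12000001 to 13000000 the level was 0.480 and 0.359 in males against 1.29 and 1.15 in hermaphrodites (± 0.34, adjusted p = 0.00014). In X 1 to 1000000, the left end, it was 0.295 and 0.210 in males against 0.491 and 0.530 in hermaphrodites (± 0.26, adjusted p = 0.00072).

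Several X windows with many counts had large errors of the fitted difference. X 2000001 to 3000000 was the highest window of X, with a level of 1.60 and 0.907 in males against 3.86 and 3.86 in hermaphrodites. Its log2 difference was -1.63 ± 0.54 (edgeR adjusted p = 0.017). X 16000001 to 17000000 had 0.996 and 0.653 in males against 2.71 and 2.05 in hermaphrodites (log2 -1.53 ± 0.47, adjusted p = 0.0086). X 4000001 to 5000000 had 1.27 and 0.623 in males against 2.30 and 2.17 in hermaphrodites. It passed most narrowly, with a log2 difference of -1.25 ± 0.47 and an adjusted p of 0.046. It was not called under any other scaling tried (edgeR adjusted p from 0.074 to 0.12), and X 2000001 to 3000000 was not called with DESeq2 size factors (0.081) or with TMM factors from autosomal bins (0.071). In these 3 windows male library 2 was well below male library 1.

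The 2 X windows with the smallest differences lay near its middle, without marking that region as a whole. X 8000001 to 9000000, between them, had a log2 difference of -1.49 ± 0.40, and the left end had -1.05 ± 0.26. X 9000001 to 10000000 had 0.314 and 0.301 in males against 0.535 and 0.616 in hermaphrodites, a log2 difference of -0.91 ± 0.26 (edgeR adjusted p = 0.0042, and 0.054 with the nuclear total). X 6000001 to 7000000 had 0.320 and 0.252 in males against 0.540 and 0.558 in hermaphrodites (log2 -0.95 ± 0.26, adjusted p = 0.0023). These were the 2 X windows above the copy ratio of -1, and 16 of 18 were below it.

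**Figure D3:**
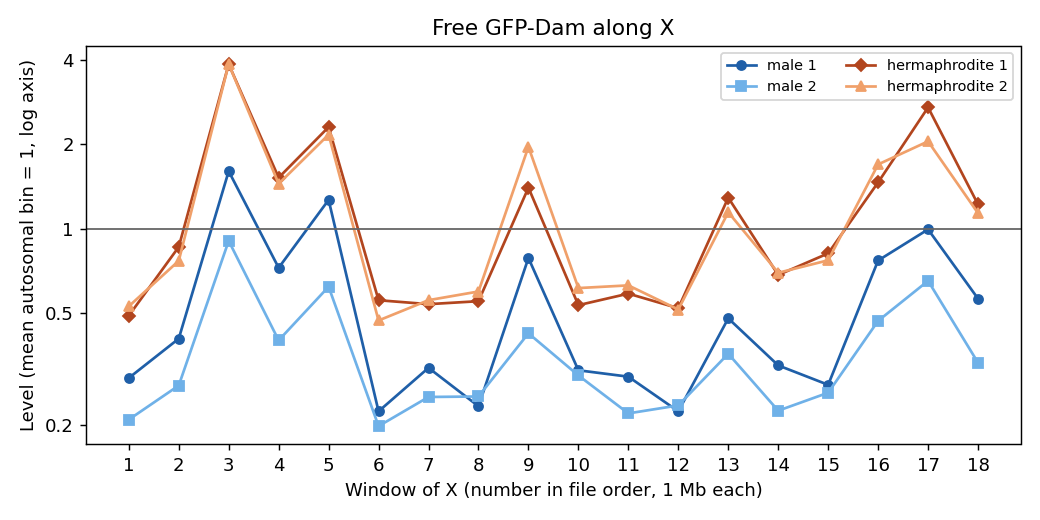
Level of the 18 windows of X in file order (log axis; mean autosomal bin of the library = 1) for the 2 male and 2 hermaphrodite libraries. Windows 3, 5 and 17 are the 3 highest in each of the 4 libraries, and both male libraries lie below both hermaphrodite libraries in every window.

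Whether male X fell below what its single copy gives was tested by lowering the expected male level on X to 0.5 times that of hermaphrodites. With 2 libraries per sex no X bin passed: edgeR called 0 of 176 X bins (0% of the 988 bins tested), and 6 X bins were lower and 2 higher at an unadjusted p under 0.05. The median X bin lay 0.37 below the copy ratio on the log2 scale (-0.37), and 129 of 176 lay below it. The same test on the windows, chosen after the bins had been seen, called 0 of 18 on X, with 1 lower at an unadjusted p under 0.05 (X 14000001 to 15000000, edgeR adjusted p = 0.96). The male libraries gave different answers. Without male library 1 the test called 2 X bins and 6 X windows lower and none higher, with an X window median of -0.61 relative to the copy ratio. The same fit also called 7 autosomal bins (5 lower and 2 higher) and 17 of 85 autosomal windows (5 lower and 12 higher), so calls were not confined to X. Without male library 2 it called 0 X bins and 0 X windows, with an X window median of -0.07, and 2 autosomal bins and 1 autosomal window. The calls below the copy ratio thus appeared in the fit that had male library 2 as its only male library, while the X level of both male libraries lay below 0.5 times that of hermaphrodites.

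Single bins of 100 kb held few counts and gave few calls. Of 988 bins with at least 5 counts in 2 of the 4 libraries, edgeR called 1 lower in males (0.101%) and 0 higher. At an unadjusted p under 0.05, 97 of 176 X bins and 2 of 812 autosomal bins were lower, and 0 X bins and 16 autosomal bins were higher. The number called depended on scaling and tool: it was 13 by DESeq2 and 28 with trimmed-mean (TMM) factors from autosomal bins, all of them on X and lower in males. Leaving out male library 1 gave 64 calls, 51 of them lower on X, leaving out male library 2 gave 21, 16 of them lower on X, and leaving out either hermaphrodite library gave 0. The bin called was X 14000001 to 14100000, with 10 and 32 counts in males against 52 and 42 in hermaphrodites. As levels these were 0.320 and 0.318 in males against 2.30 and 1.44 in hermaphrodites (log2 -2.53 ± 0.52, edgeR adjusted p = 0.00094). It lies in the window with the smallest p. DESeq2 gave no adjusted p for it, and it was not called without hermaphrodite library 1 (edgeR adjusted p = 0.47) or 2 (0.074).

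The direction was shared by most X bins. Of 176 X bins tested, 174 had a fitted difference below 0, with a median of -1.36, against 326 of 812 autosomal bins with a median of 0.15. Both male libraries lay below both hermaphrodite libraries in 147 of 178 X bins (82.6%) and in 68 of 827 autosomal bins (8.22%), which is 21.4% of all bins. The reverse held in 2 X bins (1.12%) and in 148 autosomal bins (17.9%), or 14.9% of all bins. The autosomal median above 0 moved with scaling, to 0.00 with TMM factors from autosomal bins and to 0.34 with the nuclear total. The X median was then -1.48 and -1.16, so X relative to the autosomes was -1.48 and -1.51 under these scalings and -1.51 under the autosomal total.

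Each chromosome was next divided into a left, a middle and a right part with the same number of bins, give or take 1. The left and right parts are called arms here and the middle part the centre. Autosomal arms of C. elegans are rich in repeats and in silent chromatin held at the nuclear envelope, while their centres are dense in widely expressed genes; X lacks such a marked division. In edgeR's fit to the 18 parts, the 3 parts of X were lower in males, which is 16.7% of the parts tested, and 0 of 15 autosomal parts changed (also 0 at an unadjusted p under 0.05).

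The left part of X had a level of 0.754 and 0.436 in males, against 1.60 and 1.54 in hermaphrodites, a log2 difference of -1.40 ± 0.27 (edgeR adjusted p = 8.3e-05). The middle part had 0.363 and 0.280 in males against 0.696 and 0.824 in hermaphrodites, a difference of -1.24 ± 0.28 (adjusted p = 0.00061). The right part had 0.566 and 0.385 in males against 1.35 and 1.24 in hermaphrodites, a difference of -1.45 ± 0.28 (adjusted p = 8.3e-05). The sexes lay apart in each part, and the differences between the parts were smaller than their errors. Without either hermaphrodite library 0 parts were called. Without male library 1 the 3 parts of X and 9 autosomal parts were called (4 lower and 5 higher in males), and without male library 2 the 3 parts of X and 1 autosomal part, which was lower.

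The middle part of X was lower than its outer parts in every library. Summed counts per bin on the arms of X over its centre gave log2 values of 0.86 and 0.55 in males, against 1.08 and 0.75 in hermaphrodites. In medians over bins they were 0.74 and 0.35 in males against 0.42 and 0.49 in hermaphrodites. The sexes overlapped on both measures, and the sex difference of -0.21 for summed counts (exact permutation p = 0.667) changed sign to 0.092 for medians.

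On the autosomes the contrast of arms and centres depended on how bins were summarised. In summed counts, arms exceeded centres by a mean log2 value over the 5 autosomes of 0.87 in male library 1 and 0.09 in male library 2, against 0.67 and 0.69 in hermaphrodites. With left and right pooled, arms were above the centre on 5 of 5 autosomes in male library 1 and in both hermaphrodite libraries. In male library 2 this held on 2 of 5. On IV and V only the left arm exceeded the centre in male library 1 and hermaphrodite libraries 1 and 2. The right arm of IV had levels of 0.601, 0.570 and 0.602 there, against 0.621, 0.721 and 0.738 in its centre. That of V had 0.555, 0.590 and 0.559, against 0.584, 0.648 and 0.612. In medians over bins the sign of the mean contrast turned, with -0.16 and -0.56 in males against -0.28 and -0.11 in hermaphrodites. By the mean of these medians, autosomal bins were thus lower on arms than in centres in all 4 libraries. Leaving out the 11 highest nuclear bins lowered the summed contrast to 0.43 and -0.23 in males and to 0.22 and 0.31 in hermaphrodites. The pooled arms then stayed above the centre on 5 of 5 autosomes in male library 1 and in both hermaphrodite libraries, and on 1 of 5 in male library 2.

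The sexes could not be told apart in this contrast. The difference in summed counts was -0.20 (log2; two-sided exact permutation p = 1), with the hermaphrodite libraries lying between the male ones. Without male library 1 it was -0.59, and without male library 2 it was 0.19, so its sign was set by which male library was used. X differed from the mean of the autosomes in medians, where its arms were above its centre in 4 of 4 libraries. Chromosome I came near to this, with 0.093 and -0.34 in males against 0.11 and 0.17 in hermaphrodites. II was above 0 only in hermaphrodite library 2 (0.082), and III, IV and V were below 0 in every library. The difference between X and the autosomes was not tested.

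**Figure D4:**
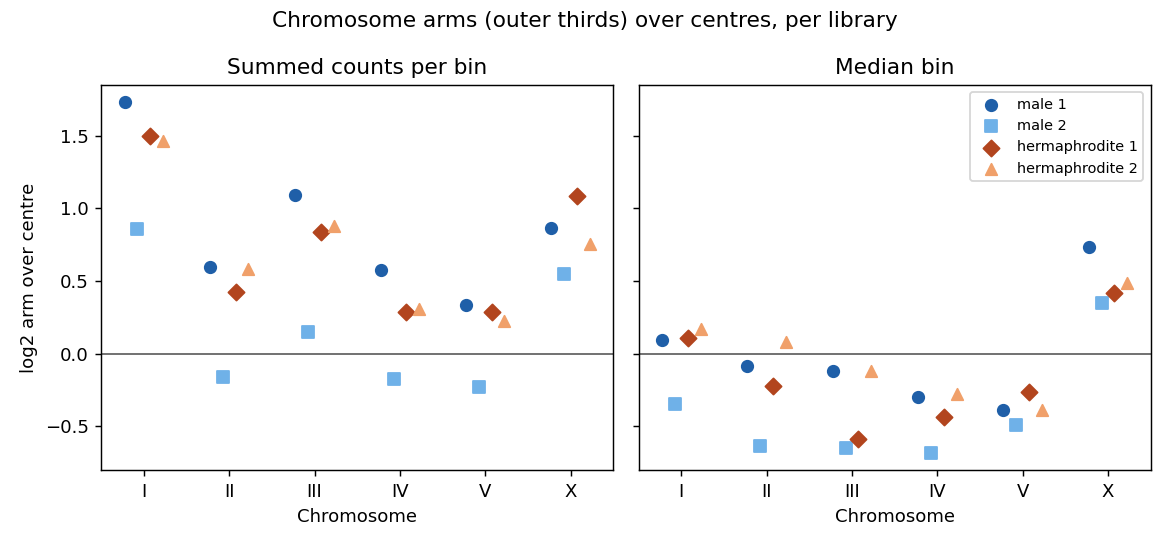
Log2 ratio of arms (outer parts) over centre (middle part) per chromosome and library, from summed counts per bin (left) and from median bins (right). Summed counts put the pooled arms above centres on autosomes except in male library 2, medians put most autosomal values at or below 0, and X is above 0 on both.

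The centres of the autosomes showed where male library 2 departed from the other libraries. The middle part of I had a level of 0.543 and 0.883 in males, against 0.652 and 0.634 in hermaphrodites. That of IV had 0.621 and 0.977 in males against 0.721 and 0.738 in hermaphrodites, and that of V had 0.584 and 0.887 against 0.648 and 0.612. In each, male library 2 was above and male library 1 below both hermaphrodite libraries. Outer parts did not all move one way in male library 2. The right part of I had 1.67 and 1.83 in males against 1.81 and 1.56 in hermaphrodites, with male library 2 the highest, while the right part of III had 2.19 and 1.51 in males against 1.94 and 1.90 in hermaphrodites.

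The 5 bins with the highest mean level over the 4 libraries were at least 7.66 times the mean autosomal bin in each library. I 500001 to 600000 was the highest by mean level, with 1307 and 2268 counts in males against 893 and 1156 in hermaphrodites. As levels these were 41.9 and 22.5 in males against 39.5 and 39.5 in hermaphrodites, so that male library 2 alone was low. The last bin of I, 15000001 to 15100000, had levels of 14.8 and 37.8 in males against 21.7 and 7.66 in hermaphrodites and was the most variable of the 5 highest. The tandem array of ribosomal RNA genes of C. elegans lies at the right end of chromosome I, and the labels do not say how reads from repeats were placed. III 13600001 to 13700000 had 31.1 and 13.1 in males against 17.6 and 17.9 in hermaphrodites. The neighbouring last bin of III had 17.0 and 10.1 in males against 18.4 and 19.3 in hermaphrodites, and IV 3200001 to 3300000 had 21.4 and 10.0 in males against 17.6 and 20.9 in hermaphrodites. None of the 5 passed the test (edgeR adjusted p from 0.89 to 0.97).

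The 5 highest bins of X, chosen after their values had been seen, were also high in both sexes. X 2200001 to 2300000 had levels of 5.51 and 2.61 in males against 14.3 and 15.0 in hermaphrodites (log2 -1.86 ± 0.73, edgeR adjusted p = 0.17). X 4300001 to 4400000 had 8.33 and 2.91 in males against 12.9 and 10.5 in hermaphrodites (log2 -1.07 ± 0.70, adjusted p = 0.65). X 8300001 to 8400000 had 5.54 and 2.37 in males against 8.67 and 14.7 in hermaphrodites. X 16900001 to 17000000 had 4.00 and 2.47 in males against 10.2 and 7.49 in hermaphrodites. X 2000001 to 2100000 had 4.36 and 1.91 in males against 8.18 and 8.96 in hermaphrodites. In all 5 the sexes did not overlap, and male library 2 was the lowest.

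At the other end, the lowest tested bins held counts too few to compare. V 19100001 to 19200000 had 0 and 10 counts in males against 5 and 0 in hermaphrodites. IV 2500001 to 2600000 had 7 and 13 in males against 2 and 1 in hermaphrodites. X 10200001 to 10300000, the lowest of X, had 0 and 6 in males against 3 and 7 in hermaphrodites. III 1100001 to 1200000 had 3 and 19 in males against 0 and 6 in hermaphrodites, and IV 16500001 to 16600000 had 1 and 16 in males against 2 and 5 in hermaphrodites. In none of these 5 was a difference detectable at this depth.

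The sex difference of X was then followed by the level of the bins, ranked into quartiles by their mean level over the 4 libraries within X and within the autosomes. This ranking uses the values compared, and is a description. On the autosomes male library 1 kept close to the hermaphrodite mean at all levels, at 0.995, 0.903, 0.915 and 1.04 times it from the lowest to the highest quartile. Male library 2 was at 1.40, 1.40, 1.27 and 0.818 times it, high among low bins and low among high bins. On X male library 1 was at 0.352, 0.414, 0.469 and 0.484 times the hermaphrodite mean, and male library 2 at 0.532, 0.366, 0.376 and 0.252 times it. Dividing the value on X by that of the autosomal quartile of the same rank gave 0.354, 0.459, 0.512 and 0.466 for male library 1. For male library 2 it gave 0.379, 0.262, 0.296 and 0.308. In male library 2 all 4 values were below 0.5, and in male library 1 3 of 4 were, the exception being 0.512.

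**Figure D5:**
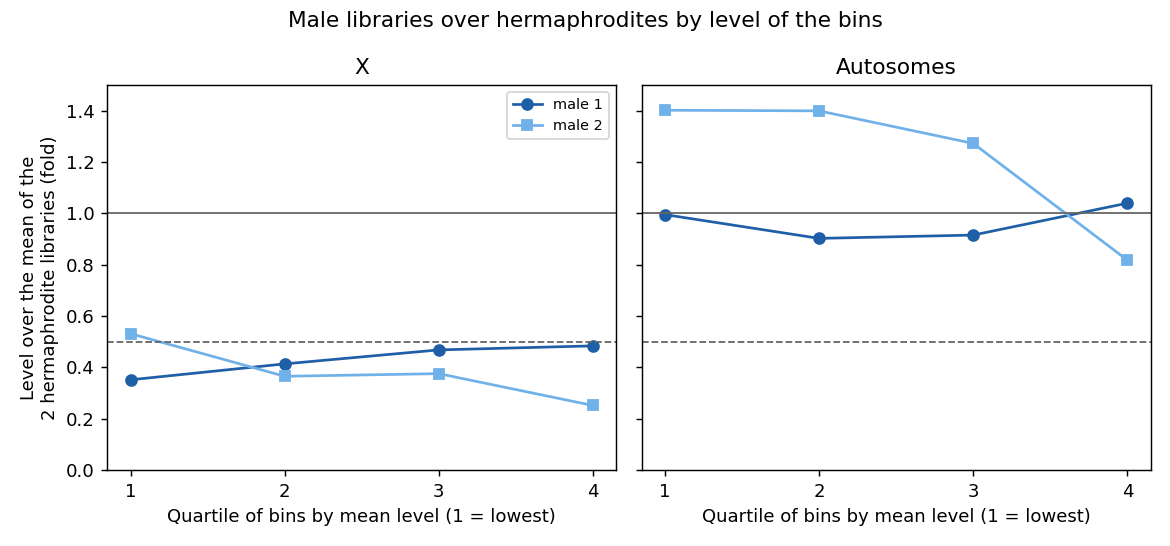
Level of each male library over the mean of the 2 hermaphrodite libraries (fold) in quartiles of bins ranked by mean level, for X (left) and the autosomes (right); the solid line is 1 and the dashed line 0.5. Male library 1 is flat near 1 on the autosomes and between 0.352 and 0.484 on X, while male library 2 is highest in the lowest quartile and lowest in the highest on both.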

How the data were processed

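GATC read counts per 100 kb bin were used as the authors deposited them, raw and not normalized. The submitters' processing notes list the tools Bowtie, SAMtools and cutadapt and the build ce10, per the labels, with no versions or settings. How reads were assigned to sites is not stated there. The authors' deposited ratio table (a linear ratio to PMW124 in the same sex) served only to identify the denominator. The 8 count columns of other strain codes were not used, since no label ties them to a construct. Files number the bins, and coordinates were taken as consecutive 100 kb steps, 1-based. The single mitochondrial bin was left out.

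Counts were divided by each library's autosomal total and not by the number of GATC sites. Bins with at least 5 counts in 2 of 4 libraries, windows of 10 bins and chromosome parts were tested in R 4.3.3 with edgeR 4.0.16 (quasi-likelihood, library size set to the autosomal total, Benjamini-Hochberg over all features, threshold 0.05). DESeq2 1.42.0 was an alternative. For the copy-number test the male offset of X was lowered by log 2. The quasi-likelihood test gives no standard error. Errors of fitted differences were derived as the absolute log2 difference divided by the square root of the F statistic. Single values had two-sided exact permutation tests over the 4 libraries (Python 3.11.15). Other scalings, filters, arm limits, a replicate block and leaving out each library were tried. The fits were tested on simulated counts. Replicates differed beyond sampling noise (chi-square per degree of freedom 8.21 for males and 2.81 for hermaphrodites), so none was merged. Named bins were those past the threshold and the 5 highest and 5 lowest by mean level; named windows were from the 10 smallest p among those past the threshold; the 5 highest bins of X and the other windows named were added after values were seen. The comparison, the bins and the tests were chosen with earlier results of these data known. The labels give no batch.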

Additional observations from a re-analysis of the deposited data

Results flagged for a closer look

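X lay below the autosomes in males and above them in hermaphrodites. On the log2 scale its level was -0.83 and -1.44 in males, against 0.28 and 0.27 in hermaphrodites, a difference of -1.41; every male library was below 0 and every hermaphrodite library above it. The permutation test of this difference could not pass a threshold with 2 libraries per sex.

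The mitochondrial bin, which entered no comparison, held counts in every library. It took 0.186% of all counts (95% Wilson interval 0.143 to 0.243) in male library 1 and 0.174% (0.149 to 0.204) in male library 2. In hermaphrodites it took 0.211% (0.160 to 0.279) in library 1 and 0.233% (0.185 to 0.293) in library 2. The counts behind these shares, 54 and 157 in males and 50 and 71 in hermaphrodites, exceed what a count of 0 allows (3 counts), and the intervals of the sexes overlap in part.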

How the results depend on the processing

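X stayed lower in males under every alternative. The log2 difference of X over the autosomes ran from -1.72 to -1.11 when 1 library was left out, and was between -1.44 and -1.40 with medians, without the highest 1% of bins or without 1 autosome. For the autosomal arms it ran from -0.59 to 0.19 without 1 library, and for the arms of X it was 0.092 with medians and from -0.38 to -0.05 without 1 library.

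The sex differences of single autosomes were near 0 in summed counts. With medians they were -0.063 on I, -0.084 on III, 0.12 on IV and 0.20 on V. On I the sign was negative under each alternative, from -0.10 to -0.01 without 1 library. On the others it changed: without 1 library the difference ran from -0.10 to 0.057 on II (0.0081 with medians), from -0.19 to 0.14 on III, from -0.036 to 0.13 on IV and from -0.066 to 0.21 on V.

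Calls moved more. The count of 1 called bin became 7 with TMM factors, 7 with DESeq2 size factors, 2 with the nuclear total (1 on X lower and 1 autosomal higher), 28 with TMM factors from autosomal bins, 5 with at least 10 counts, 13 by DESeq2, and 0 to 64 without 1 library. Against the copy ratio, 0 to 2 X bins were called without 1 library. Called windows ran from 0 to 41 and called parts from 0 to 12 without 1 library. Without a hermaphrodite library the spread comes from the male pair alone; the cause of the lost calls was not tested. The lone library in such fits is assumed to vary like the pair.

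The numbers do not pair the libraries by any label. Deviations of same-numbered libraries had only a weak negative correlation over the 103 windows (r = -0.26). With a replicate block, edgeR called 1 bin, 12 windows and 2 parts. With the crossed pairing, added after seeing the data, it called 0 bins, 17 windows and 3 parts. Either block called 0 X bins against the copy ratio.

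Scaling shifted the median of all bins from -0.01 to 0.19 (nuclear total) and -0.14 (TMM factors from autosomal bins). Among the high and low bins named as values, the log2 difference changed sign without 1 library in 6: from -0.81 to 0.083 for I bin 6, -0.44 to 0.81 for III bin 137, -0.94 to 0.16 for IV bin 33, -4.54 to 4.92 for V bin 192, -1.92 to 0.37 for IV bin 166 and -0.40 to 6.02 for III bin 12, bins being numbered from the left end. The last 3 have few counts, where fitted values depend on the prior count.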
